A study of Mus musculus with 21 samples.

Results

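Collagen genes were followed in skin and inguinal lymph node of mice that carry an interferon kappa (*Ifnk*) transgene in the epidermis. The members are the genes whose symbol is Col, a number, the letter a and a second number, and 44 of the 55491 rows in each deposited table met this rule. By structure they comprise 11 fibrillar chains, 9 fibril-associated chains with interrupted helices (FACIT), 6 basement membrane chains of type IV, 6 beaded filament chains of type VI, 4 transmembrane chains, 3 short-chain network chains, 2 multiplexins, 1 anchoring fibril chain and 2 others.

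Skin came from 12-month-old mice on the BALB/c background and comprised 3 libraries of wild-type (WT) skin, 2 of nonlesional (NL) and 4 of lesional (L) skin of *Ifnk* transgenic (TG) mice, none of them irradiated. The transgene is driven by the keratin 14 promoter, was made in C57Bl/6 mice with a PiggyBac vector and was then crossed onto BALB/c, so expression from it is directed to basal epidermal cells. Lymph nodes came from WT and *Ifnk* TG mice whose age the labels do not give, untreated or shaved on the back and given 250 mJ/cm2 UVB on 3 days a week for 2 weeks and observed for 2 more, with 3 libraries in each of the 4 groups. The labels do not give the sex, the body site or the mouse of a library, and place every library of a tissue in batch 1, so p-values measure only the spread between these samples.

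Collagens are triple-helical proteins in which 3 chains wind around each other, with glycine recurring along each chain. Fibrillar collagens form the tensile fibres of the dermis and FACIT collagens decorate their surface, while type IV collagen forms the sheet of basement membranes around epidermis, vessels, muscle and nerve. Type VII anchors the epidermal basement membrane to the dermis, and in lymph nodes a reticular meshwork of type III and other collagens is laid down by fibroblastic stromal cells.

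The libraries held 40499078 to 56511276 counts in skin and 27599809 to 36428435 in lymph node. *Ifnk* itself had 0 counts in all WT skin libraries, 0 and 6 in NL, 5 to 14 in L and 0 in all lymph node libraries. *Krt14*, a basal keratinocyte keratin, had 49332 to 256189 counts in skin and at most 1 in lymph node, and *Ptprc*, the pan-leukocyte CD45 gene, had 70620 to 94702 in lymph node and 1364 to 3836 in skin. After a filter on low counts, 19101 genes were tested in skin and 16173 in lymph node, among them 40 and 27 collagen genes. The 4 left out in skin were *Col2a1*, *Col9a1*, *Col10a1* and *Col19a1*, with at most 34 counts in any library. Levels below are CPM, counts scaled to a common TMM-adjusted library size, and levels of different genes are compared only per kilobase of the principal transcript.

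Collagen genes took 0.378% to 1.04% of all counts in skin and 0.00922% to 0.0183% in lymph node. In skin, *Col1a1*, *Col1a2* and *Col3a1* together held 44.5% to 69.7% of the collagen counts of a library. On the per-kilobase scale, WT skin was led by *Col3a1* at 353 ± 116 (SD, n = 3) CPM per kb, followed by *Col1a2* at 250 ± 53.3 and *Col1a1* at 120 ± 23.6. *Col4a1* came next at 86.7 ± 10.4 CPM per kb, ahead of *Col17a1* at 86.0 ± 12.9. The ranges of *Col3a1* and *Col1a2* overlapped, as did those of *Col4a1* and *Col17a1*, whereas *Col1a2* lay above *Col1a1* in all WT libraries. In L skin the same 3 fibrillar genes led in the same order, with *Col1a1* at 151 ± 90.1 CPM per kb (SD, n = 4).

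The first comparison asked how collagen transcripts differ between L skin of *Ifnk* TG mice and WT skin. Of the 40 tested collagen genes, 8 rose and 5 fell in L skin, which is 32.5% of the members, where 43.1% of all tested genes passed (edgeR's quasi-likelihood test, Benjamini-Hochberg adjusted p under 0.05 over all tested genes). In the higher direction 20% of the members passed against 23.0% of all genes, and in the lower direction 12.5% against 20.2%. The median log2 fold change was -0.26 over the tested members and 0.06 over all tested genes, and 27 of the 40 members had a value below 0. The libraries of the groups did not overlap for 15 members, which is 37.5% against 49.4% of all tested genes, and 19 members had an unadjusted p under 0.05, which is 47.5% against 51.7%. The main dermal chains were among those that did not pass, and 5 of the 8 that rose were below 2 CPM in every WT library. Of these, *Col6a4* had at most 5 counts and *Col25a1* at most 9 in any WT or NL library, so that both passed the filter on low counts only through L skin, as did *Col26a1*.

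One L library stood apart from the rest. In the L library numbered 7, collagen genes took 1.04% of counts, against 0.413% to 0.495% in the other L libraries, and the levels of *Col1a1*, *Col1a2*, *Col3a1*, *Col5a2* and *Col6a2* in it were at or near the highest of all 9 skin libraries. Without this library 20 collagen genes passed against WT, 7 of them higher and 13 lower, and 10 of these were not called with it. The 10 were *Col4a1*, *Col4a2*, *Col5a1*, *Col5a2*, *Col5a3*, *Col6a1*, *Col6a2*, *Col6a3*, *Col6a5* and *Col15a1*, while *Col4a5*, *Col11a2* and *Col20a1* no longer passed. The count fell to 7 without WT library 8 and to 8 without WT library 10. The L library 7 was picked out by its collagen values, and it held the highest L value of each of the 10 added genes. Leaving it out must lower their L means, so the calls made without it, here and below, are not independent support.

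**Figure D1:**
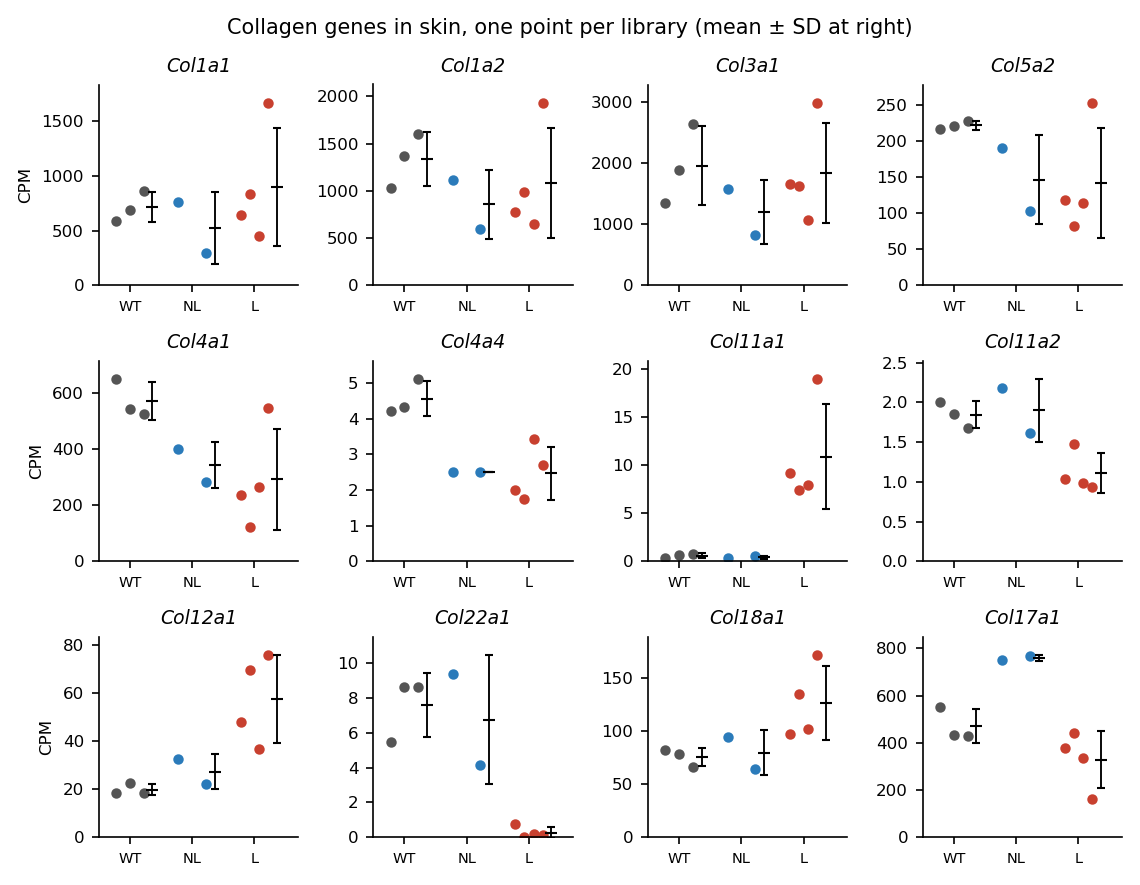
CPM (y axis, linear from 0) of 12 collagen genes in each WT, NL and L skin library, one point per library, with the mean and SD of each group as a black bar at its right. For *Col11a1* and *Col12a1* each of the 4 L points is above every WT and NL point, *Col22a1* lies below 1 CPM in all 4, and 1 L library holds the highest *Col1a1*, *Col1a2* and *Col3a1* values.

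Among the fibrillar collagens, those that build the bulk of dermal fibres were spread widely within L skin. *Col1a1*, one of the chains of type I collagen, was at 586, 690 and 863 CPM in WT, 755 and 294 in NL, and 644, 831, 449 and 1663 in L. *Col1a2*, its partner chain, was at 1035, 1370 and 1602 CPM in WT, 1116 and 602 in NL, and 778, 984, 650 and 1933 in L. *Col3a1*, the chain of type III collagen, was at 1352, 1894 and 2642 CPM in WT, 1579 and 831 in NL, and 1658, 1632, 1070 and 2992 in L. The groups overlapped for all 3 genes, and the highest L value came from library 7 each time. Against WT the log2 fold changes in L were 0.33 ± 0.47 (SE) for *Col1a1*, -0.30 ± 0.39 for *Col1a2* and -0.09 ± 0.38 for *Col3a1*, with edgeR adjusted p of 0.603, 0.57 and 0.862.

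Type V collagen sits inside type I fibrils and limits their diameter. *Col5a1* was at 116, 145 and 173 CPM in WT, 111 and 67.9 in NL, and 81.0, 63.3, 73.0 and 158 in L. *Col5a2* was at 216, 221 and 228 CPM in WT, 190 and 103 in NL, and 119, 82.2, 114 and 253 in L. Library 7 alone kept both from lying below WT in all L libraries. Their log2 fold changes of -0.63 ± 0.33 and -0.64 ± 0.37 did not pass (edgeR adjusted p = 0.159 and 0.197), and without library 7 they were -1.0 and -1.07 (adjusted p = 0.00788 and 0.00833). *Col5a3* lay below WT in all 4 L libraries, at 17.7 to 98.6 CPM against 122 to 140, and missed the threshold (log2 fold change -1.29 ± 0.48, adjusted p = 0.0583).

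Type XI collagen is the cartilage counterpart of type V and, like it, nucleates fibrils. *Col11a1* had the largest increase of any tested collagen gene against WT. It was at 0.365, 0.617 and 0.816 CPM in WT, 0.306 and 0.540 in NL, and 9.18, 7.40, 7.95 and 19.0 in L, so that all L libraries lay far above all others. The log2 fold change was 4.18 ± 0.48 against WT (edgeR adjusted p = 0.000377) and 4.70 ± 0.59 against NL (adjusted p = 0.00164), and it passed without any 1 library. *Col11a2*, another chain of the same collagen, moved the other way, at 2.01, 1.85 and 1.68 CPM in WT, 2.18 and 1.62 in NL, and 1.04, 1.48, 0.991 and 0.937 in L. Its log2 fold change of -0.73 ± 0.25 against WT (adjusted p = 0.0438) passed in only 1 of the 9 fits that left out a library, with adjusted p up to 0.123. Against NL the value of -0.78 ± 0.28 did not pass (adjusted p = 0.0756), although the libraries did not overlap.

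Cartilage markers were low in these libraries. The 6 listed cartilage genes summed to 2.7 to 3.99 CPM in WT, 3.21 to 3.31 in NL and 3.79 to 18.1 in L. Of the 4 tested, 1 rose against WT and 2 against NL. *Acan*, the large proteoglycan of cartilage, rose against both, with 42 to 231 counts in L and 0 to 2 in WT and NL. *Snorc*, a chondrocyte proteoglycan, rose against NL (edgeR adjusted p = 0.0492), with 5 to 34 counts in L, 0 in NL and 0, 6 and 0 in WT. Both passed the filter on low counts only through L skin. *Matn3*, a matrilin of cartilage, stayed at or below 0.142 CPM in every skin library, and *Col2a1*, the main cartilage collagen, had at most 17 counts. Hair shaft genes summed to 1918 to 6273 CPM in L and at most 8.04 in WT and NL, and 10 of the 10 tested rose. *Krt35*, 1 of these, had at most 11 counts in any WT or NL library and 15770 to 45829 in L, so it too passed the filter only through L skin. A gene near absent outside L can be tested only where L is high, so the count of 10 adds little to the sums. The part of cartilage or hair shaft genes in the *Col11a1* result was not tested.

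The bases just before the starts of 3 fibrillar genes are given because *Col3a1* was the most abundant member in WT skin and because *Col11a1* and *Col11a2*, chains of the same collagen, moved apart. The sequences are from RefSeq (build GRCm38.p6), all on the plus strand, and are 250 bases long, ending at the base before the RefSeq start: chr1:45311288-45311537 for *Col3a1*, chr3:114030290-114030539 for *Col11a1* and chr17:34038888-34039137 for *Col11a2*. No exon of a GENCODE M21 gene lies in any of the windows. Capitals mark matches, on either strand, to a short motif, which was CCAAT for the box of that name, TATAAA for the TATA box, GGGCGG for the GC box and TGANTCA for the site of the factor AP-1.
Col3a1: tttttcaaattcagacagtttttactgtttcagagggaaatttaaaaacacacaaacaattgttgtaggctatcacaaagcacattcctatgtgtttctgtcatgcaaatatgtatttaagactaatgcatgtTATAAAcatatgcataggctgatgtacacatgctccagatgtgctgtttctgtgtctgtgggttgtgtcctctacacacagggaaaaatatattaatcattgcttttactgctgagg
Col11a1: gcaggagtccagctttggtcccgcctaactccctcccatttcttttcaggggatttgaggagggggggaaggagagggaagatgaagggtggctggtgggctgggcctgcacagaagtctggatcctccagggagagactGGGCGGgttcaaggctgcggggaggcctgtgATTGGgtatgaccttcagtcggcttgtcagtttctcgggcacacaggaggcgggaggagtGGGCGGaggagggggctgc
Col11a2: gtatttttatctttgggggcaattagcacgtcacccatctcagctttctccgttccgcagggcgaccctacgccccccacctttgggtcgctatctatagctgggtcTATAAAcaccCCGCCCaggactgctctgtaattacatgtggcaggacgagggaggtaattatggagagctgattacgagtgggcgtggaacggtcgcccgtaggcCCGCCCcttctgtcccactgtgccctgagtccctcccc
*Col3a1* held 1 TATA box match and none of the others, *Col11a1* held 1 CCAAT and 2 GC box matches, and *Col11a2* held 1 TATA box and 2 GC box matches. Of 32851 RefSeq windows of this length, 33.8% held CCAAT, 12.4% TATAAA, 32.7% GGGCGG and 6.75% TGANTCA. Windows were found for 35 of the 44 members, 38 windows in all, and held these motifs in 13, 5, 22 and 1 of them. A match is only a run of letters, and the window is where the annotation places the start. GENCODE M21 places the *Col11a2* start further downstream, at chr17:34039437, whereas its *Col3a1* and *Col11a1* starts directly follow the windows.

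The 2 remaining tested fibrillar chains, *Col24a1* and *Col27a1*, lay between 0.515 and 4.08 CPM in skin and did not pass in any skin comparison.

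Of the FACIT collagens, which sit on fibril surfaces, 2 rose and 2 fell among the 7 tested against WT. *Col12a1*, which links fibrils under tension, was at 18.6, 22.7 and 18.4 CPM in WT, 32.4 and 22.1 in NL, and 47.9, 69.6, 36.7 and 75.9 in L. All L libraries lay above all others, with a log2 fold change of 1.53 ± 0.27 against WT (edgeR adjusted p = 0.00242) that passed without any 1 library. Against NL it was 1.08 ± 0.30 (adjusted p = 0.033) and was lost in 6 of the 9 fits without a library, with adjusted p up to 0.225 without NL library 3. *Col14a1*, a related fibril-associated chain, was at 54.4, 75.0 and 63.8 CPM in WT, 67.9 and 31.5 in NL, and 40.2, 18.8, 60.9 and 61.6 in L, with overlapping groups and no call (log2 fold change -0.50 ± 0.41, adjusted p = 0.358).

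*Col22a1*, a chain found at junctions of muscle with tendon, had the largest decrease. It was at 5.45, 8.64 and 8.61 CPM in WT, 9.37 and 4.12 in NL, and 0.765, 0.0247, 0.176 and 0.144 in L, with as few as 1 count in an L library. The log2 fold change was -4.71 ± 0.78 against WT (edgeR adjusted p = 0.00202) and -4.55 ± 0.81 against NL (adjusted p = 0.00625), the second lost without NL library 2 (adjusted p = 0.051). The 8 skeletal muscle markers summed to 28206 to 39382 CPM in WT, 25353 to 30740 in NL and 22.9 to 7151 in L. *Acta1*, the skeletal muscle actin, was at 1936, 6.51, 84.5 and 474 CPM in the 4 L libraries, and the order of the L libraries in *Acta1* had the same highest and lowest library as that in *Col22a1*. Whether the samples held less muscle or the muscle less of these transcripts cannot be told apart in bulk tissue, here or for any gene below, and the part of muscle content in the *Col22a1* result was not tested.

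*Col9a3*, a type IX chain, was at 0.228, 0.309 and 0.470 CPM in WT, 0.631 and 0.662 in NL, and 2.60, 2.49, 0.925 and 1.17 in L, and rose against WT (log2 fold change 2.42 ± 0.48, edgeR adjusted p = 0.00439). Its exons share 234 bases with *Tcfl5* on the opposite strand. *Tcfl5* had 2 to 6 counts in WT and NL skin and 51 to 101 in L, and as the strandedness of the libraries is not stated, reads of the shared bases could belong to either gene. *Col20a1*, a chain of the same class, was at 1.8, 1.57 and 1.66 CPM in WT, 3.23 and 1.67 in NL, and 0.637, 1.06, 1.01 and 0.631 in L. It fell against WT by 1.01 ± 0.32 on the log2 scale (adjusted p = 0.0326), lost in 5 of 9 fits without a library, and fell against NL by 1.56 ± 0.35 (adjusted p = 0.0139), lost without NL library 2 (adjusted p = 0.163). *Col16a1* lay between 58.6 and 90.7 CPM in all skin libraries and did not pass. *Col9a2* and *Col9a1* reached 26 and 34 counts in WT library 10, against at most 1 in the other WT libraries.

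**Figure D2:**
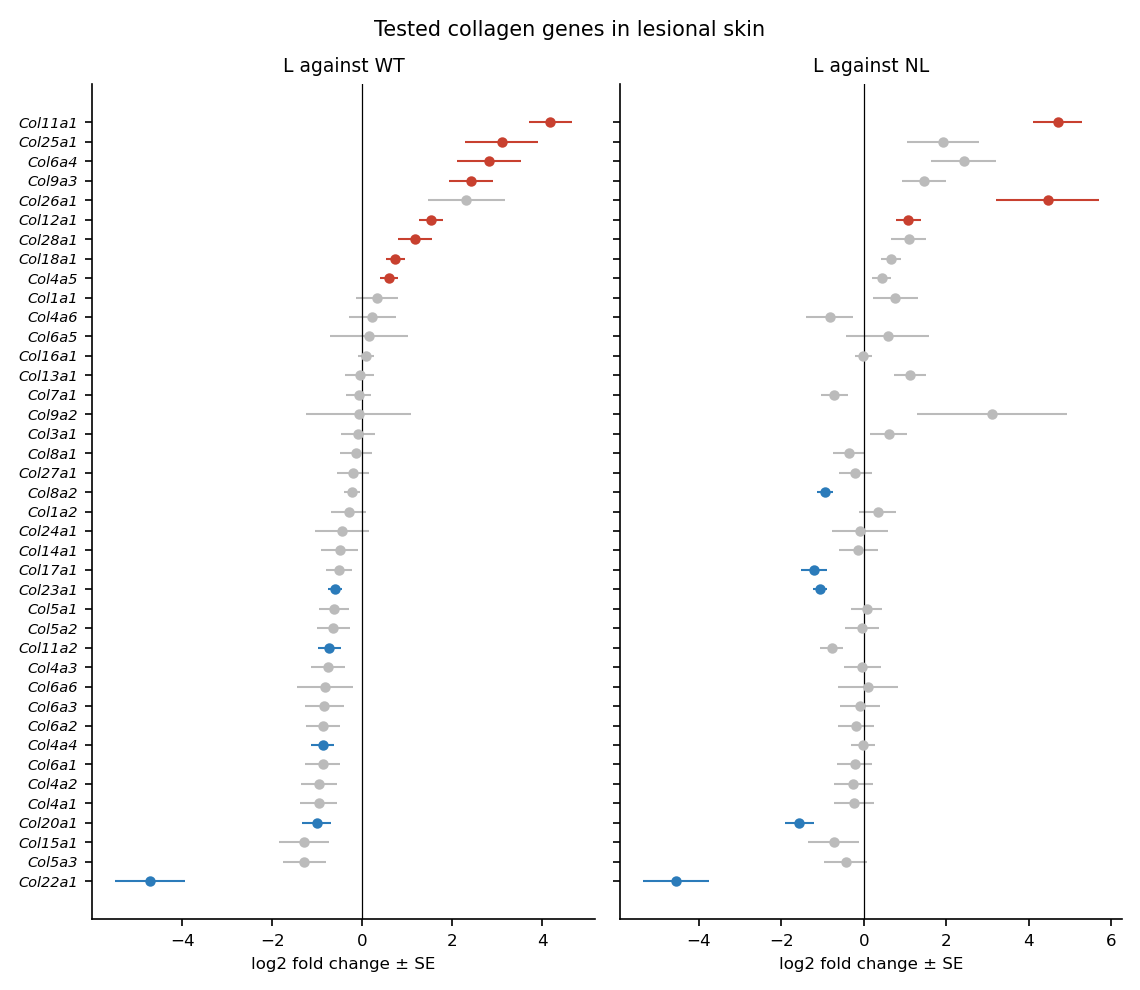
Log2 fold change with its SE (x axis) of the 40 tested collagen genes in L skin against WT (left) and against NL (right), ordered by the value against WT. Genes that passed an adjusted p of 0.05 are red where higher and blue where lower, and the others are grey: 8 and 5 passed at the left, 3 and 5 at the right.

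Type IV collagen forms the network of basement membranes, and its genes lie in head-to-head pairs. The *Col4a1* and *Col4a2* models overlap by 22 bases at their starts, and *Col4a4* and *Col4a3* are 71 bases apart. *Col4a1* was at 652, 543 and 525 CPM in WT, 403 and 285 in NL, and 237, 123, 266 and 548 in L. *Col4a2* was at 396, 283 and 299 CPM in WT, 233 and 165 in NL, and 141, 76.3, 140 and 313 in L. Both were lower in 3 of the 4 L libraries than in any WT library, and in library 7 lay within the WT range. The log2 fold changes of -0.97 ± 0.42 and -0.96 ± 0.41 did not pass (edgeR adjusted p = 0.0974 and 0.0936), and without library 7 they were -1.46 and -1.45 (adjusted p = 0.00576 and 0.00463). Endothelial markers, of cells rich in these chains, were lower as well, with 4 of 5 passing against WT and sums of 194 to 274 CPM in WT, 165 to 210 in NL and 84.6 to 165 in L, and their part was not tested.

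*Col4a4*, a chain of the specialised network of kidney and some epithelia, was at 4.22, 4.34 and 5.12 CPM in WT, 2.50 and 2.50 in NL, and 2.00, 1.75, 3.42 and 2.7 in L. All L libraries lay below WT and the log2 fold change was -0.88 ± 0.25 (edgeR adjusted p = 0.0208), lost without WT library 10 (adjusted p = 0.0748). Its neighbour *Col4a3* was at 2.19 to 3.04 CPM in WT and 0.740 to 2.45 in L and did not pass (-0.76 ± 0.38, adjusted p = 0.139). *Col4a5*, encoded on the X chromosome and found in the epidermal basement membrane, rose by a log2 fold change of 0.59 ± 0.20 (adjusted p = 0.0444), which passed in 3 of 9 fits without a library and reached 0.149. It was at 8.81 to 12.4 CPM in WT and 12.5 to 18.7 in L, so the nearest libraries were close. The sequence between the *Col4a4* and *Col4a3* models, chr1:82586850-82586920 in RefSeq's GRCm38.p6 and read on the strand of *Col4a4*, is shown because it is all that separates the starts of this pair. It is in lower case as none of the motifs searched above is in it, and of RefSeq windows of 71 bases 13.3% held CCAAT and 20.7% GGGCGG.
Col4a4 to Col4a3: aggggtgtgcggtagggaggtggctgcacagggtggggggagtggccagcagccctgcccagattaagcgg

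Type VI collagen forms beaded filaments around cells. *Col6a1* was at 246, 253 and 284 CPM in WT, 225 and 108 in NL, and 125, 91.2, 101 and 252 in L. *Col6a2* was at 236, 272 and 290 CPM in WT, 220 and 112 in NL, and 124, 97.0, 101 and 261 in L. *Col6a3* was at 159, 224 and 275 CPM in WT, 165 and 96.0 in NL, and 115, 53.4, 105 and 217 in L. The 3 genes shared the pattern of *Col4a1*, with the L library numbered 7 inside the WT range and the others below it. Log2 fold changes were -0.88 ± 0.38, -0.87 ± 0.38 and -0.84 ± 0.43 (edgeR adjusted p = 0.0953, 0.0949 and 0.152), and without library 7 they were -1.30, -1.31 and -1.27 and all passed. *Col6a4* had 2, 1 and 4 counts in WT, 5 and 2 in NL, and 10, 17, 32 and 19 in L, and rose against WT (2.82 ± 0.71, edgeR adjusted p = 0.012).

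Of chains tied to the epidermal junction, *Col17a1* encodes the transmembrane collagen of hemidesmosomes and *Col7a1* the anchoring fibril. *Col17a1* was at 553, 433 and 428 CPM in WT, 749 and 769 in NL, and 377, 444, 337 and 161 in L. *Col7a1* was at 34.1, 21.6 and 24.1 CPM in WT, 48.1 and 33.9 in NL, and 33.4, 29.1, 23.2 and 14.7 in L. *Col17a1* fell in L against NL (log2 fold change -1.20 ± 0.32, edgeR adjusted p = 0.0275), lost without NL library 2, NL library 3 or L library 6 (adjusted p up to 0.13), and its value of -0.52 ± 0.29 against WT did not pass (adjusted p = 0.187). For *Col7a1* the value against NL was -0.71 ± 0.32 (adjusted p = 0.133) and against WT -0.08 ± 0.28. Library 7 was the lowest L library for both, and its *Krt14* level, 1416 CPM, was also the lowest of the L libraries, which otherwise held 3896 to 4665. *Col23a1*, another transmembrane chain, was at 27.8, 26.1 and 23.6 CPM in WT, 39.8 and 31.4 in NL, and 16.9, 21.4, 16.4 and 13.6 in L. It fell against both, by 0.60 ± 0.16 against WT (adjusted p = 0.0163, lost without WT library 8) and by 1.06 ± 0.18 against NL (adjusted p = 0.00437, lost without NL library 2). *Col25a1*, a transmembrane chain of neurons, had 2, 0 and 7 counts in WT, 6 and 9 in NL, and 42, 17, 38 and 29 in L (log2 fold change 3.10 ± 0.82, adjusted p = 0.0156, lost without WT library 8).

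The multiplexins are proteoglycan collagens of basement membrane zones. *Col18a1*, the source of endostatin, was at 82.2, 79.0 and 66.2 CPM in WT, 94.7 and 64.8 in NL, and 97.4, 135, 102 and 172 in L. *Col15a1* was at 252, 168 and 142 CPM in WT, 163 and 90.7 in NL, and 53.8, 33.7, 50.1 and 169 in L. All L libraries lay above WT for *Col18a1* (log2 fold change 0.74 ± 0.22, edgeR adjusted p = 0.0258), a call lost without any 1 of the WT libraries (adjusted p up to 0.0929). For *Col15a1* the groups overlapped through library 7 alone (-1.29 ± 0.55, adjusted p = 0.0903), and without it the value was -2.03 (adjusted p = 0.0027). *Col28a1* rose from 1.35 to 1.57 CPM in WT to 2.16 to 5.92 in L (1.17 ± 0.38, adjusted p = 0.0337), in 5 of 9 fits without a library.

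Against NL skin, which shares the L libraries with the comparison above, 3 collagen genes rose and 5 fell in L, which is 20% of the 40 tested, where 25.0% of all tested genes passed. In the higher direction 7.5% of the members passed against 13.2% of all genes, and in the lower 12.5% against 11.8%. The libraries did not overlap for 17 members, 42.5% against 49.4%, and 14 had an unadjusted p under 0.05, 35% against 39.0%. The median was -0.04 over the members and 0.03 over all genes. Those that rose were *Col11a1*, *Col12a1* and *Col26a1*, and those that fell *Col22a1*, *Col20a1*, *Col17a1*, *Col23a1* and *Col8a2*. *Col26a1* had 11, 10, 14 and 22 counts in L and 1 and 0 in NL, a ratio of shares of 27.8 with an exact 95% counting interval of 4.79 to 1117, and its call was lost in 4 of 9 fits without a library. *Col8a2*, a network chain of corneal and vascular membranes, was at 17.9 and 14.8 CPM in NL and 6.94 to 10.8 in L (log2 fold change -0.94 ± 0.20, edgeR adjusted p = 0.0114, lost without either NL library). With only 2 NL libraries, the count was 1 without NL library 2 and 4 without NL library 3, and *Col11a1* was the gene left in the first case.

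Between NL and WT skin no collagen gene passed in edgeR's test, nor did any of the 19101 genes (0%), and DESeq2 called 0 members as well. At an unadjusted p under 0.05, edgeR had 4 members, which is 10% of those tested against 7.67% of all genes. These were *Col8a2* (log2 fold change 0.72 ± 0.22, adjusted p = 0.568), *Col13a1* (-1.18 ± 0.40, 0.593), *Col4a4* (-0.86 ± 0.31, 0.599) and *Col23a1* (0.46 ± 0.19, 0.645). The libraries did not overlap for 15 of the 40 tested members, where they did not for 6677 of the 19101 genes. Of the 15, 11 were lower in NL (*Col4a1*, *Col4a2*, *Col4a3*, *Col4a4*, *Col5a1*, *Col5a2*, *Col5a3*, *Col6a1*, *Col6a2*, *Col6a6* and *Col13a1*) and 4 were higher (*Col8a2*, *Col9a3*, *Col17a1* and *Col23a1*). The median log2 fold change over the members was -0.40, and it was -0.87 without NL library 2, -0.02 without NL library 3 and -0.13 without WT library 10.

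Pairs of chains, some of one molecule and some of different collagens, were compared as ratios of counts per kb within a library, which do not depend on scaling between libraries. The 2 chains of type I collagen join in one molecule, whereas *Col17a1* and *Col7a1* belong to different collagens. *Col1a1* to *Col1a2* was 0.510, 0.454 and 0.486 in WT, 0.610 and 0.440 in NL, and 0.746, 0.761, 0.623 and 0.776 in L. All L libraries lay above all others, with a mean log2 ratio 0.58 higher than in WT (exact two-sided permutation p = 0.0571, the smallest that 4 against 3 libraries allow, adjusted p = 0.457 over 24 tests). *Col4a5* to *Col4a1* was 0.0164 to 0.0193 in WT, 0.0241 and 0.0463 in NL and 0.0316 to 0.153 in L, a log2 difference of 1.74 (exact permutation p = 0.0571, adjusted 0.457). *Col17a1* to *Col7a1* was 27.4 to 33.9 in WT and 18.5 to 25.7 in L, a log2 difference of -0.48 (exact permutation p = 0.0571, adjusted 0.457). By contrast *Col4a1* to *Col4a2* stayed between 1.57 and 1.87 and *Col6a1* to *Col6a2* between 0.899 and 1.00 in all 9 libraries, library 7 included. No ratio in skin could pass, since these group sizes do not allow an exact permutation p below 0.0571.

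**Figure D3:**
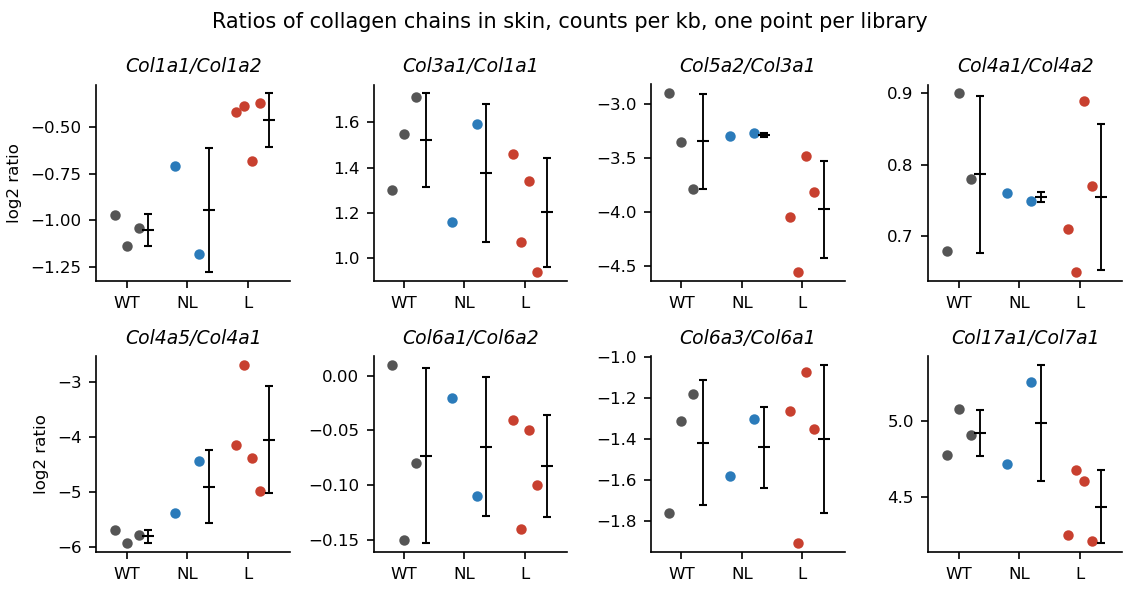
Log2 ratio of counts per kb (y axis) for 8 pairs of collagen chains in each WT, NL and L skin library, one point per library, with mean and SD as black bars and a separate scale in each panel. The L libraries lie above WT for *Col1a1*/*Col1a2* and *Col4a5*/*Col4a1* and below WT for *Col17a1*/*Col7a1*, while *Col6a1*/*Col6a2* spans only -0.15 to 0.01.

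Genes that make, process and bind collagen were read from hand-written lists. In L against WT, 1 of 20 tested modifying enzymes and chaperones rose and 10 fell, with a median log2 fold change of -0.48. For this and the lists below, 23.0% of all tested genes rose and 20.2% fell in this comparison, with a median of 0.06. *Tmem38b*, an endoplasmic reticulum cation channel, was at 16.5 to 28.0 CPM in L and 59.4 to 83.3 in WT (-1.69 ± 0.19, edgeR adjusted p = 0.000354). *P4ha1*, a catalytic subunit of prolyl 4-hydroxylase, fell by 0.69 ± 0.11 on the log2 scale, and *Ppib*, the prolyl isomerase cyclophilin B, rose from 127 to 143 CPM in WT to 192 to 255 in L (0.74 ± 0.11, both adjusted p = 0.00132).

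Of 13 tested genes of procollagen processing and cross-linking, 1 rose and 6 fell (median -0.87). *Pcolce2*, an enhancer of C-propeptide removal, *Tgm2*, a transglutaminase, and *Adamts2*, a procollagen N-proteinase, had log2 fold changes of -1.71 ± 0.24, -2.0 ± 0.35 and -1.19 ± 0.24 (edgeR adjusted p = 0.000925, 0.00269 and 0.00457). Of 14 fibril-associated proteins 3 rose and 5 fell (median -0.21), led by *Thbs2*, a matricellular thrombospondin, at 81.5 to 141 CPM in L and 266 to 388 in WT (-1.63 ± 0.20, adjusted p = 0.000446). The small leucine-rich proteoglycans *Prelp* and *Ogn* followed (-2.52 ± 0.36 and -2.41 ± 0.41). Of 10 collagen receptors none rose and 3 fell, namely *Itgb1* and *Itga1*, which pair as a collagen-binding integrin, and *Ddr2*, a receptor kinase for fibrillar collagen, by 0.47, 0.67 and 0.47 on the log2 scale.

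Of 19 other genes of basement membrane and hemidesmosome 2 rose and 9 fell (median -0.93), and the laminin chain gene *Lamb2* had the lowest adjusted p (34.6 to 56.7 CPM in L, 147 to 160 in WT, -1.65 ± 0.16, edgeR adjusted p = 0.000205). *Plec*, a linker of hemidesmosomes that muscle also holds, and the laminin gene *Lama1* fell by 1.27 ± 0.15 and 3.31 ± 0.54. Of 12 TGF-beta genes 1 rose and 8 fell (median -1.01), among them *Tgfbr3*, *Tgfb2* and *Smad3* (-1.25 ± 0.22, -1.20 ± 0.23 and -1.31 ± 0.26). Against NL the same lists had 1 higher and 3 lower, 1 and 3, 1 and 3, 0 and 0, 1 and 6, and 1 and 3, where 13.2% of all tested genes rose and 11.8% fell. *Bgn*, the proteoglycan biglycan, rose there from 67.0 and 110 CPM to 164 to 286 (1.28 ± 0.28, adjusted p = 0.0125), and *Smad7*, an inhibitor of TGF-beta signals, rose by 1.08 ± 0.24 (adjusted p = 0.0136). Both also rose against WT, by 1.31 ± 0.24 and 0.92 ± 0.21 (edgeR adjusted p = 0.0029 and 0.00755). Fibroblast markers fell with these lists, 5 of 8 passing against WT, with sums of 1494 to 2173 CPM in WT, 1103 to 1435 in NL and 494 to 1010 in L, and their part in the values above was not tested.

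In lymph node, 27 of the 44 collagen genes were tested, and the rest had low counts in all or nearly all libraries. The paper's methods state that nodes for RNA went through a cell strainer before lysis, whereas frozen skin was crushed. How much stroma passed the strainer is not known, and its part in the node values here and below was not tested. On the per-kilobase scale, unirradiated WT nodes were led by *Col1a2* at 3.05 ± 0.431 CPM per kb (SD, n = 3) and *Col6a4* at 2.95 ± 0.199, whose ranges overlapped. *Col1a1* at 2.04 ± 0.515, *Col3a1* at 2.00 ± 0.229 and *Col11a2* at 1.5 ± 0.461 came next, with overlapping ranges. *Col6a4* and *Col11a2* together held 19.1% to 57.2% of the collagen counts of a lymph node library and at most 0.0441% of those of a skin library, a share that does not depend on how the tables were scaled. *Col23a1* and *Col20a1* were also among the 12 highest members in unirradiated WT nodes. Exons of *Col6a4* share 289 bases with 2 genes on the other strand, which had at most 3 counts in any lymph node library.

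The question in lymph node was how the draining node changed after UVB and whether the *Ifnk* transgene altered it. In WT mice 1 of the 27 collagen genes passed, *Col4a1*, which fell, so that 3.7% of the members were called where 4.98% of all tested genes were, 2.92% higher and 2.06% lower. At an unadjusted p under 0.05 edgeR had 14 members, 4 higher and 10 lower, or 51.9% against 26.3% of all genes. The median log2 change was -0.50 over the members, where that over all tested genes rounded to 0. The libraries did not overlap for 15 members, 5 higher and 10 lower, or 55.6% against 37.1% of all genes. The call of *Col4a1* was lost in 8 of the 12 fits without a library (adjusted p up to 0.187), which left out WT libraries 1, 2 and 3, irradiated WT libraries 8 and 9, TG libraries 4 and 6 and irradiated TG library 11. Without irradiated TG library 12 the number called was 11, without irradiated WT library 7 it was 4 and without irradiated TG library 10 it was 2.

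**Figure D4:**
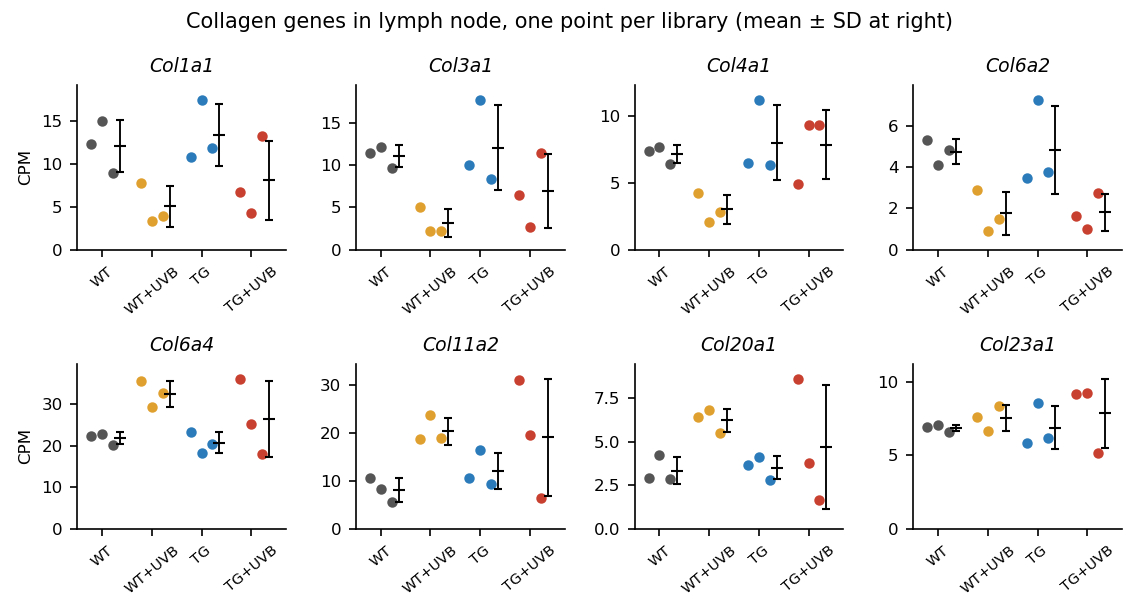
CPM (y axis, linear from 0) of 8 collagen genes in each lymph node library, by genotype and UVB, one point per library, with mean and SD as black bars. In WT nodes the irradiated libraries lie below the unirradiated for *Col1a1*, *Col3a1*, *Col4a1* and *Col6a2* and above them for *Col6a4*, *Col11a2* and *Col20a1*.

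Of the basement membrane chains, *Col4a1* was at 7.39, 7.62 and 6.36 CPM in unirradiated WT nodes and 4.20, 2.04 and 2.79 after UVB, and at 6.43, 11.2 and 6.28 in unirradiated TG nodes and 4.89, 9.33 and 9.30 after UVB. *Col4a2* was at 3.80, 4.20 and 3.78 CPM in WT and 2.76, 1.13 and 2.02 after UVB, and at 2.92, 6.95 and 3.20 in TG and 2.50, 5.67 and 6.21 after UVB. In WT nodes no library overlapped for either gene, whereas in TG nodes the irradiated and unirradiated values were interleaved. The UVB change of *Col4a1* was -1.24 ± 0.32 on the log2 scale in WT (edgeR adjusted p = 0.0447) and -0.02 ± 0.30 in TG, and that of *Col4a2* -0.99 ± 0.42 (adjusted p = 0.157) and 0.14 ± 0.40. The difference between genotypes itself, 1.21 ± 0.44 for *Col4a1* and 1.12 ± 0.58 for *Col4a2*, did not pass (adjusted p = 0.848 for both, unadjusted 0.0158 and 0.0734). After UVB *Col4a1* lay higher in all TG than in all WT libraries (1.37 ± 0.32, unadjusted p = 0.000799, adjusted p = 0.673), and DESeq2 called it with adjusted p = 0.0212.

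Of the fibrillar chains, *Col1a1* was at 12.3, 15 and 8.90 CPM in WT and 7.81, 3.31 and 3.95 after UVB, and at 10.8, 17.5 and 11.8 in TG and 6.72, 4.28 and 13.2 after UVB. *Col1a2* was at 18.4, 16.7 and 13.8 CPM in WT and 12.5, 4.62 and 4.17 after UVB, and at 17.3, 30.4 and 16.2 in TG and 8.93, 6.65 and 18.6 after UVB. *Col3a1*, the main reticular fibre collagen, was at 11.4, 12.2 and 9.70 CPM in WT and 5.05, 2.14 and 2.15 after UVB, and at 9.97, 17.8 and 8.41 in TG and 6.51, 2.71 and 11.5 after UVB. All 3 were lower after UVB in every WT library, and in TG nodes irradiated library 12 stayed within the unirradiated range. Log2 changes in WT were -1.26 ± 0.43, -1.19 ± 0.49 and -1.83 ± 0.51 (edgeR adjusted p = 0.103, 0.159 and 0.0669), and in TG -0.73 ± 0.42, -0.90 ± 0.48 and -0.80 ± 0.49, none of them called by edgeR. DESeq2 called *Col1a1* and *Col3a1* lower in WT (adjusted p = 0.0116 and 0.0127), as did edgeR fitted to these 2 groups alone.

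The type V chains were lower in level. *Col5a1* was at 1.33, 1.03 and 1.32 CPM in WT and 1.56, 0.436 and 0.582 after UVB, and at 1.49, 2.98 and 0.980 in TG and 0.611, 0.975 and 1.59 after UVB. *Col5a2* was at 1.24, 1.38 and 0.737 CPM in WT and 0.481, 0.618 and 0.429 after UVB, and at 1.38, 2.92 and 0.778 in TG and 0.756, 1.32 and 1.04 after UVB. *Col5a3* had 6 to 12 counts in unirradiated and 0 to 3 in irradiated libraries of both genotypes, with log2 changes of -2.61 ± 0.90 in WT and -2.82 ± 0.94 in TG (edgeR adjusted p = 0.0966 and 0.389). It passed the filter on low counts only through unirradiated nodes, so it adds little to any count of members lower after UVB.

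*Col6a1* was at 6.79, 5.65 and 3.56 CPM in WT and 3.51, 1.09 and 1.23 after UVB, and at 4.73, 7.95 and 5.30 in TG and 2.27, 1.39 and 5.26 after UVB. *Col6a2* was at 5.28, 4.08 and 4.82 CPM in WT and 2.88, 0.873 and 1.5 after UVB, and at 3.46, 7.26 and 3.75 in TG and 1.63, 1.01 and 2.75 after UVB. *Col6a3* was at 1.60, 1.94 and 1.20 CPM in WT and 1.08, 0.400 and 0.368 after UVB, and at 1.49, 2.64 and 1.44 in TG and 0.582, 0.487 and 2.51 after UVB. *Col6a2* was lower after UVB in every library of both genotypes, with log2 changes of -1.42 ± 0.44 in WT and -1.42 ± 0.44 in TG that did not pass (edgeR adjusted p = 0.0764 and 0.364). The summed stroma and vessel-wall markers were also lower after UVB in WT, as were sums of unrelated content. Erythroid markers summed to 80.1 to 168 CPM before and 6.69 to 26.5 after UVB in WT, and adipocyte markers to 1.45 to 7.12 and 0.42 to 0.797. The 8 lymph node stroma markers summed to 69.8 to 91.5 CPM in WT, 21.6 to 54.9 in irradiated WT, 81.9 to 179 in TG and 29.6 to 85.3 in irradiated TG, and the 5 pericyte and smooth muscle markers to 27.3 to 39.0, 7.71 to 18.2, 30.5 to 63.4 and 12.1 to 28.1. *Ccl21a* held most of the stroma sum, at 57.9, 63.8 and 48.8 CPM in WT and 37.7, 13.0 and 13.9 after UVB. In the same list *Glycam1* did not overlap (4.62 to 7.83 CPM against 1.87 to 3.30), whereas *Pdgfrb* did (1.78 to 2.45 against 0.436 to 1.92). None of the 7 tested fibroblast markers passed in WT, with a median log2 change of -0.31 and no value above 0. The list summed to 639 to 708 CPM before and 553 to 640 after UVB. *Pdgfra* and *Dpt* held little of that sum, so it says little about them. They did not overlap, at 1.41 to 2.01 and 4.27 to 5.64 CPM before and 0.582 to 1.26 and 0.644 to 2.73 after UVB. The part of these markers in the collagen values was not tested.

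Several of the more abundant members in lymph node had higher values after UVB in WT. *Col6a4* was at 22.3, 22.8 and 20.1 CPM in WT and 35.5, 29.3 and 32.8 after UVB, and at 23.3, 18.3 and 20.5 in TG and 36.2, 25.1 and 18.0 after UVB. *Col11a2* was at 10.5, 8.19 and 5.56 CPM in WT and 18.7, 23.7 and 18.9 after UVB, and at 10.6, 16.4 and 9.34 in TG and 31.2, 19.6 and 6.49 after UVB. *Col20a1* was at 2.90, 4.23 and 2.86 CPM in WT and 6.40, 6.80 and 5.52 after UVB, and at 3.65, 4.09 and 2.77 in TG and 8.64, 3.79 and 1.65 after UVB. In WT all irradiated libraries lay above all unirradiated ones for these genes and for *Col9a3* and *Col7a1*. None passed (log2 changes 0.58 ± 0.20, 1.33 ± 0.48 and 0.91 ± 0.44 for the first 3, edgeR adjusted p = 0.0934, 0.119 and 0.208). DESeq2 called *Col6a4* higher, and edgeR fitted to these 2 groups alone called all 5. In irradiated TG nodes, library 12 held the lowest and library 10 the highest value of *Col6a4*, *Col11a2*, *Col20a1*, *Col9a3* and *Col7a1*.

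The other members given by library were lower in level or had no order shared by both genotypes. *Col7a1* was at 0.694, 0.314 and 0.307 CPM in WT and 1.44, 1.13 and 1.07 after UVB, and at 0.270, 1.02 and 0.663 in TG and 2.09, 0.975 and 0.245 after UVB. *Col17a1* was at 1.39, 1.1 and 0.952 CPM in WT and 1.32, 0.800 and 1.35 after UVB, and at 1.22, 1.25 and 1.5 in TG and 1.42, 1.60 and 1.19 after UVB. *Col12a1* was at 0.664, 0.345 and 0.246 CPM in WT and 1.08, 0.400 and 0.184 after UVB, and at 0.703, 0.426 and 0.548 in TG and 0.494, 0.348 and 0.704 after UVB. *Col17a1* counts are in a node whose *Krt14* and *Krt5* counts were at most 2. *Col14a1* was at 6.13, 4.89 and 4.54 CPM in WT and 5.53, 1.56 and 1.59 after UVB, and at 4.03, 7.97 and 4.78 in TG and 2.24, 1.84 and 8.60 after UVB. *Col15a1* was at 1.93, 1.07 and 2.21 CPM in WT and 1.29, 0.763 and 1.84 after UVB, and at 1.95, 3.29 and 1.44 in TG and 1.13, 1.29 and 0.765 after UVB. *Col18a1* was at 1.36, 0.753 and 0.614 CPM in WT and 0.931, 0.582 and 0.215 after UVB, and at 0.649, 1.08 and 0.403 in TG and 0.233, 3.83 and 0.551 after UVB. The groups overlapped for these genes, apart from *Col7a1* in WT and *Col15a1* in TG, and irradiated TG library 11 held the *Col18a1* value of 3.83.

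**Figure D5:**
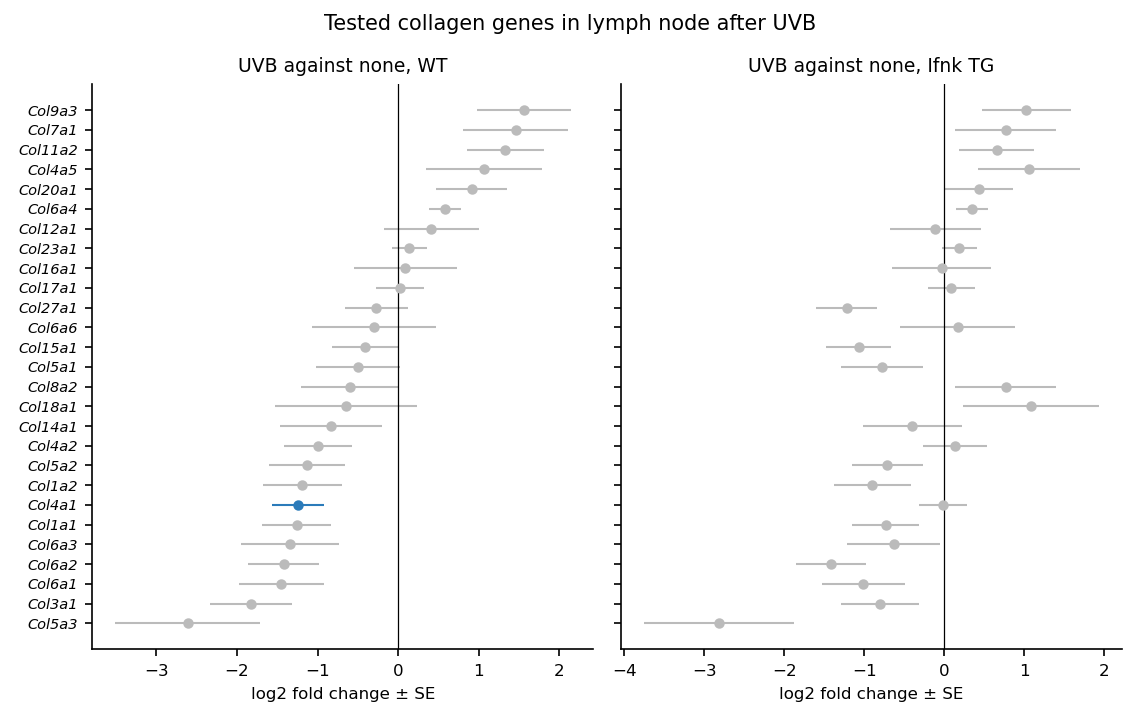
Log2 fold change after UVB with its SE (x axis) of the 27 tested collagen genes in WT (left) and *Ifnk* TG (right) lymph node, ordered by the WT value. *Col4a1* in WT, in blue, is the only value that passed an adjusted p of 0.05, and the grey values did not.

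In the other lymph node comparisons edgeR called no collagen gene, and 0% of all tested genes passed in each. After UVB in *Ifnk* TG nodes, 4 members were under an unadjusted p of 0.05, or 14.8% against 9.32% of all genes, led by *Col27a1* (log2 change -1.22 ± 0.38, adjusted p = 0.364), *Col6a2* and *Col5a3*. Of these, *Col5a3* passed the filter on low counts only through unirradiated nodes. *Col27a1*, a fibrillar chain, was at 1.63, 3.01 and 2.36 CPM in WT and 2.01, 1.53 and 2.27 after UVB, and at 2.35, 7.38 and 3.29 in TG and 1.72, 2.26 and 1.59 after UVB. In TG against WT without UVB the number was 1, or 3.7% against 3.39%, and the gene was *Col27a1* again (0.89 ± 0.38, adjusted p = 1), followed by *Col8a2* and *Col5a2*. In TG against WT after UVB it was 4, or 14.8% against 6.99%, led by *Col4a1*, *Col4a2* (1.27 ± 0.42, adjusted p = 0.673) and *Col3a1* (1.15 ± 0.51, adjusted p = 0.709). For the difference of the UVB changes it was 1, or 3.7% against 5.45%, and *Col4a1*, *Col4a2* and *Col27a1* (-0.96 ± 0.54) had the lowest p. DESeq2 called 0 members in the first, second and last of these and 1, *Col4a1*, in TG against WT after UVB. The libraries did not overlap for 4 members after UVB in TG (14.8% against 13.3% of all genes), for 0 in TG against WT without UVB (0% against 10.5%) and for 2 after UVB (7.41% against 9.71%). The comparisons share libraries, so the values are not independent of each other.

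One lymph node library held transcripts of the type IV pair that were near absent elsewhere. Irradiated TG library 11 had 133 counts of *Col4a3* and 194 of *Col4a4*, where the other 11 libraries had at most 4 and 11. It also had 36 counts of *Col4a5*, against 4 to 12 elsewhere, and 110 of *Col18a1*, against 7 to 45. Neither *Col4a3* nor *Col4a4* passed the filter, so neither was tested. *Col4a3* shares 563 exon bases with *C430014B12Rik* on the opposite strand, which had at most 10 counts in any lymph node library.

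Chain ratios in lymph node were compared over both genotypes or both treatments, with 6 libraries on each side. *Col4a5* to *Col4a1* had a mean log2 ratio 1.47 higher after UVB (-3.62 ± 1.14 against -5.09 ± 0.48, SD, n = 6; exact permutation p = 0.0238, adjusted 0.305 over 16 tests). *Col4a5* had 36 counts in irradiated TG library 11 and only 4 to 12 elsewhere. The ratio also holds the *Col4a1* values given above, so it is not a separate result. *Col3a1* to *Col1a1* was 0.36 lower after UVB (exact permutation p = 0.0519, adjusted 0.305), and *Col4a1* to *Col4a2* 0.20 lower (exact permutation p = 0.0779, adjusted 0.305). No ratio passed after adjustment for UVB or for genotype.

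Of the lists in WT nodes after UVB, 3 of 13 tested fibril-associated genes fell and none rose, beside 2.06% of all genes that fell. *Sparc*, a collagen-binding glycoprotein, went from 10.2 to 14.1 CPM to 1.78 to 5.80 (log2 change -1.85 ± 0.47, edgeR adjusted p = 0.0495), and the proteoglycan genes *Fmod* and *Lum* fell by 1.89 ± 0.50 and 2.14 ± 0.57 (adjusted p = 0.0497 and 0.0477). *Fmod* went from 3.81 to 5.58 CPM to 0.582 to 2.37, and *Lum*, very low throughout, from 0.470 to 1.21 to 0.0919 to 0.218. All 3 calls lay close to the threshold, and their values without a library are not given here. Of 17 modifying enzymes 2 rose, beside 2.92% of all genes, and none fell. They were the lysyl hydroxylase genes *Plod1* (8.47 to 10.9 against 11.9 to 23.7 CPM, 0.88 ± 0.20, adjusted p = 0.032) and *Plod3* (13.9 to 17.8 against 23.8 to 24.9 CPM, 0.57 ± 0.15, adjusted p = 0.0436). *Itga10*, an integrin chain that binds collagen, rose from 0.184 to 0.565 CPM to 1.29 to 1.93 (2.07 ± 0.54, adjusted p = 0.0451), and was the 1 of 9 receptors that passed. *Dst*, a plakin of hemidesmosomes and of other cells, rose by 1.07 ± 0.26 (adjusted p = 0.0378), 1 of 16 basement membrane genes. None of the 8 processing genes or the 10 TGF-beta genes passed, and in the other lymph node comparisons no gene of any list did.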

How the data were processed

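Polyadenylated RNA of 9 skin and 12 lymph node samples was sequenced as paired ends. Per the submitters' processing notes, cutadapt 4.8, FastQC 0.11.8, STAR 2.7.8a, RSEM 1.3.3 and MultiQC 1.20 were used with GRCm38. The authors deposited RSEM expected counts, 1 table of 55491 genes per tissue; the annotation release and strandedness are not given in the sources used here. Expected counts were rounded to whole numbers.

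Each tissue was fitted in edgeR 4.0.16 (R 4.3.3) with TMM scaling, a low-count filter (minimum count 10, minimum total 15), all groups in one robust quasi-likelihood model and Benjamini-Hochberg adjustment over all tested genes at 0.05. The standard error is the log2 fold change divided by the square root of F. Chain ratios (counts plus 0.5) were compared by exact permutation in Python 3.11.15 with scipy 1.17.1. DESeq2 1.42.0 and other scalings, filters and left-out libraries were alternatives. The procedure was tested on simulated data. Gene models were GENCODE M21; 264 rows had none. Intervals and floors cover counting error only.

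Members and lists were chosen with earlier results of these data known. Values per library were given for 16 set genes and for the 5 largest called changes in each direction per comparison, or the 3 lowest p where none was called, and 3 genes per list. Other genes were named after their values were seen.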

Additional observations from a re-analysis of the deposited data

Results flagged for a closer look

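Within the 4 L skin libraries, 1 library lay far from the others by Dixon's criterion for 5 of the 40 tested collagen genes. Chance marks about 1 group in 20. The genes were read in the same libraries and are not independent, so the number of flags cannot be set against that rate. Library 7 was at 261 CPM for *Col6a2* (97.0 to 124 in the others), 14.2 for *Col6a5* (0.888 to 2.33), 19.0 for *Col11a1* (7.40 to 9.18) and 169 for *Col15a1* (33.7 to 53.8). Library 5 was at 5.92 CPM for *Col28a1* (2.16 to 2.63 in the others).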

How the results depend on the processing

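No paired analysis was possible because the labels do not give the mouse of a library. Whether L and NL skin came from the same mice is therefore not known. Against WT, 13 collagen genes passed in L skin and 20 did with DESeq2 (9 higher, 11 lower), and 7 to 20 when 1 library was left out. Against NL, 8 passed and 14 did with DESeq2 (8 higher, 6 lower), and 1 to 10 when 1 library was left out. In WT nodes after UVB, 1 passed, 6 with DESeq2 (1 higher, 5 lower), 12 when only the groups compared were fitted (5 higher, 7 lower), and 0 to 11 when 1 library was left out. In TG against WT nodes after UVB, 0 passed and 1 did with DESeq2. The cause was not tested. Of 2632 alternatives for 151 named values, 2548 kept direction and side of the threshold, 49 lost the threshold, 35 gained it and 0 reversed past it. Most of the named values were not called in the main fit, so keeping the side mostly means staying uncalled. The 49 losses all fall on the called values, which were the fewer. The 2 NL libraries limit every comparison with them.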
